A study of Homo sapiens with 42 samples.

Results

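The comparison described here is that of selumetinib alone with the solvent DMSO in OCI-AML3, a human acute myeloid leukaemia cell line labelled NPM1c+, that is, carrying the mutant nucleophosmin that moves to the cytoplasm. Its members were chosen by group label: 3 libraries from cells given 100 nM selumetinib and 3 from cells given DMSO and collected on day 3, so 6 of the 42 RNA-seq libraries of the series, with every gene of the count table taken in. Selumetinib is an allosteric inhibitor of the kinases MEK1 and MEK2. The other OCI-AML3 groups held 3 libraries each. They had DMSO to day 6, the menin inhibitor VTP-50469 at 100 nM for 3 or 6 days, or both drugs. VTP-50469 is spelled VTP-50649 in the sample labels. The groups with both drugs were labelled day 3 or day 6. These labels do not give the time of selumetinib within the combination. The second line of the series, NOMO1, is labelled KMT2A-r (KMT2A-rearranged) and had the same 7 groups. The labels give no genetic modification of either line.

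MEK stands in the RAS-RAF-MEK-ERK cascade, in which active RAS recruits RAF, RAF phosphorylates MEK and MEK phosphorylates ERK. ERK enters the nucleus, switches on the immediate early genes through serum response factor and its ETS partners, stabilises several of their proteins, and drives the cyclins of G1 phase. ERK also induces its own brakes: the dual-specificity phosphatases (DUSP) that remove phosphate from ERK, and the Sprouty and SPRED proteins that act upstream at RAS and RAF. OCI-AML3 is known to carry an activating NRAS mutation, and in myeloid cells this cascade works downstream of the receptors for FLT3 ligand, KIT ligand and the colony-stimulating factors.

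The labels leave the length of the selumetinib treatment open. The study design gives 1 day, and the descriptions of all 3 selumetinib libraries give day 1, but the title of replicate 1 gives day 1 and those of replicates 2 and 3 give day 3. No DMSO library was collected on day 1, so the drug and any difference in time in culture cannot be told apart. The DMSO libraries of day 6 show only how far the control moved between day 3 and day 6. Between DMSO on day 6 and DMSO on day 3 no gene passed an adjusted p of 0.05 in edgeR's quasi-likelihood test, and DESeq2 called 1. Of 16384 genes tested 174 had an unadjusted p under 0.05 in edgeR's test. That is a smaller share than the 0.05 that a test with no true change would give. The test was thus conservative for this pair of groups, and the lack of calls does not show that the control stayed the same. Whether replicate libraries stem from separate cultures is not stated in the labels, so the p-values measure the spread between these libraries, which may be technical.

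Counts were turned into CPM (counts scaled to a common library size) over library totals adjusted by the trimmed mean of M values (TMM), and each gene was tested with edgeR's quasi-likelihood test over all 21 OCI-AML3 libraries. A gene counts as called when its Benjamini-Hochberg adjusted p over all 16384 genes tested was at most 0.05. SE is an approximate standard error of its log2 fold change, selumetinib minus DMSO. It was taken as the absolute log2 fold change over the square root of the test's F statistic, and is rough at low counts. A value given with ± is a mean with its SD over the 3 libraries of a group. Of these genes 1920, or 11.7%, were higher with selumetinib and 2562, or 15.6%, were lower, together 27.4%. These shares are the background for every count of list members below, beside a median log2 fold change over all tested genes of 0.024. Of the called genes, 563 were at least 2-fold higher and 349 at least 2-fold lower, 203 were at least 4-fold higher and 85 at least 4-fold lower. In 98.1% of the called genes the 3 values of the 2 groups did not overlap. This share is no separate evidence for the calls, since the test favours genes whose groups lie apart. The same share over all tested genes was not counted, but genes that were not called often did not overlap either. Of 45 ribosomal protein genes tested, 14 did not overlap and 1 was called. Of 30 interferon-stimulated genes tested, 15 did not overlap, while 4 were called higher and 1 lower. When libraries were scaled to their plain totals in place of TMM, 2345 genes were higher and 2058 lower, so that 53.3% of the called genes were higher, against 42.8% with TMM.

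**Figure D1:**
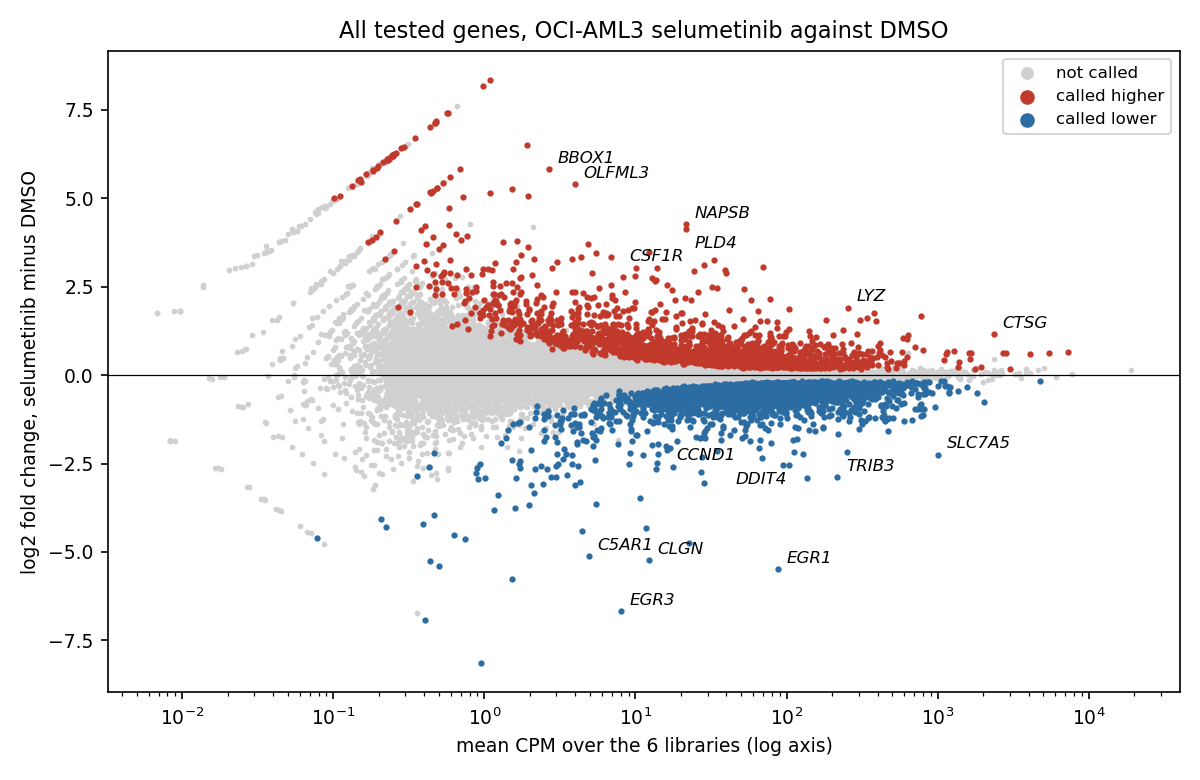
Log2 fold change, selumetinib minus DMSO, of each tested gene against its mean CPM over the 6 libraries (log axis), with genes called higher in red and genes called lower in blue. EGR1 and EGR3 lie at the bottom at -5.48 and -6.67 and BBOX1 and OLFML3 near the top at 5.81 and 5.41. The fold changes of genes with no read in 1 group, along the outer diagonal lines, depend on the prior count of the fit.

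Selumetinib replicate 1 stood nearer to the DMSO libraries than its 2 partners did. Among the genes that differed between the groups, replicate 1 was the selumetinib library nearest to the DMSO mean in 72.5%, replicate 2 in 12% and replicate 3 in 15.6%, whereas among the other genes replicate 1 was nearest in 41.7%. The median difference from the DMSO mean of the genes that were higher was 0.49 on the log2 scale in replicate 1, 0.67 in replicate 2 and 0.67 in replicate 3. For the genes that were lower it was -0.39, -0.54 and -0.52 in the same order. Replicate 1 is the library whose title gives day 1. Each count of a gene list below was also made without each library in turn, and the count is given where a left-out library moved it by over 1.5 times.

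**Figure D2:**
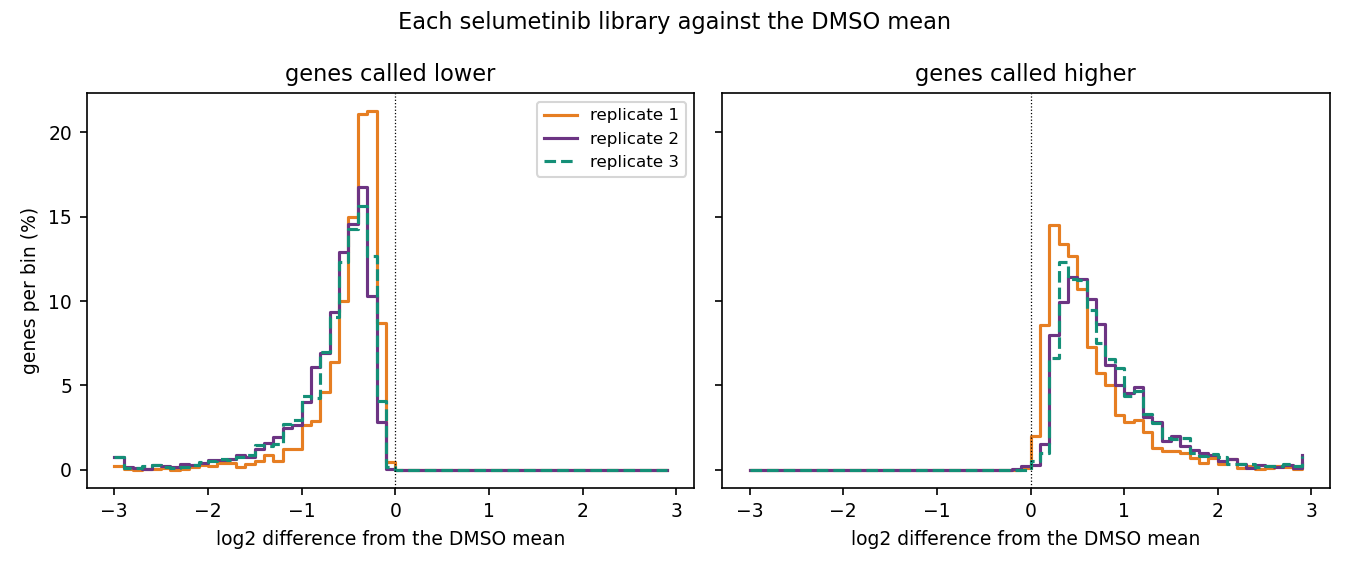
Share of genes (%) per bin of log2 difference of each selumetinib library from the mean of the 3 DMSO libraries, for the genes that were lower (left) and higher (right). Values beyond 3 in either direction are pooled in the end bins. The distribution of replicate 1 sits nearer to 0 in both panels, with medians of -0.39 and 0.49, and those of replicates 2 and 3 lie over each other.

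Library totals ran from 17006206 to 24262960 counts over the 6 libraries. Mitochondrially encoded genes took 2.53% ± 0.128 of counts with DMSO (SD, n = 3) and 4.03% ± 0.414 with selumetinib. With these genes removed before scaling, 1969 genes were higher and 2453 lower. The 6 libraries carried the markers of a myeloid line: 10 of 12 markers were above 1 CPM with DMSO, and their sum was 1903 to 2024 CPM with DMSO and 2379 to 2881 CPM with selumetinib. Of 12 erythroid markers 11 had no read in either group. The summed level was 3.56 to 4.44 CPM with DMSO and 4.68 to 6.58 CPM with selumetinib for 8 megakaryocyte markers, and 6.75 to 8.41 CPM against 16.1 to 18.4 CPM for 8 B cell markers, most of it EBF1. It was 200.2 to 239.9 CPM against 256 to 269 CPM for 10 T and NK cell markers, nearly all of it NCAM1. For 10 epithelial and stromal markers it was 504 to 546 CPM against 679 to 793 CPM, most of it VIM, an intermediate filament gene that leukaemia lines express. Without VIM the sum was 1.2 to 2.16 CPM with DMSO and 22.5, 4.62 and 7.46 CPM in selumetinib replicates 1, 2 and 3. Of that list 1 marker averaged above 1 CPM with DMSO and 5 with selumetinib, and of its 8 tested members 4 were called higher and none lower: VIM (log2 fold change 0.51, adjusted p = 1.49e-05), COL1A1, COL3A1 and KRT19, beside 11.7% higher of all genes. The collagen gene COL1A1 read 0, 0.0997 and 0 CPM in the DMSO libraries and 8.03, 0 and 3.36 CPM in the selumetinib libraries, and COL3A1 read 0, 0 and 0 CPM in the DMSO libraries and 2.69, 0 and 0.738 CPM in the selumetinib libraries. KRT19, an epithelial keratin gene, read 0, 0 and 0 CPM in the DMSO libraries and 0.739, 0.751 and 0 CPM in the selumetinib libraries. Both collagens were seen in selumetinib replicates 1 and 3 and had no read in replicate 2. Their adjusted p was 0.0357 and 0.0158, and that of KRT19 0.035; each of these 3 calls was lost without selumetinib replicate 1 or any 1 of the DMSO libraries. EPCAM and CDH1, which define epithelial cells, had no read with DMSO and 39 and 12 reads in all with selumetinib. The part of these markers in any result was not tested. In bulk RNA, fewer cells of a kind and less RNA per cell cannot be told apart.

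Most of the feedback phosphatases and inhibitors of the ERK cascade that changed were lower. Of 10 DUSP genes tested 5 were lower and 2 higher, with a median log2 fold change of -0.87. Of 7 Sprouty and SPRED genes 5 were lower and none higher, with a median of -0.68, and of 3 PEA3 factors, the ETS transcription factors ETV1, ETV4 and ETV5 that ERK induces, 2 were lower. Without selumetinib replicate 2 or 3 the lower genes were 3 of the DUSP list, 3 of the Sprouty and SPRED list and 1 PEA3 factor. Without DMSO replicate 1 or 2 they were 3 DUSP genes and 1 PEA3 factor, and without DMSO replicate 3 also 1 PEA3 factor. The higher DUSP genes were 1 without selumetinib replicate 1 or 3 or DMSO replicate 3. Of 9 tested genes of a MEK activity signature, which shares members with these lists and adds CCND1, PHLDA1 and EPHA2, 7 were lower and 1 higher, with a median of -1.08. Without selumetinib replicate 1 the signature had 6 lower and none higher, with a median of -1.57, and without selumetinib replicate 2 or DMSO replicate 1 or 2 it had 4 lower. The higher gene was also lost without selumetinib replicate 3 or DMSO replicate 3.

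DUSP6 encodes the cytoplasmic phosphatase specific for ERK, and it is often used as a readout of MEK activity. It read 9.55, 9.92 and 7.63 CPM in the DMSO libraries and 6.86, 3.41 and 2.71 CPM in the selumetinib libraries. All 3 selumetinib libraries lay below the DMSO libraries, replicate 1 only just (log2 fold change -1.07, SE 0.33, adjusted p = 0.0155). The call was lost when selumetinib replicate 2 or 3, or DMSO replicate 1 or 2, was left out. DUSP5, the nuclear ERK phosphatase, read 24.1, 20.7 and 22.5 CPM in the DMSO libraries and 9.61, 7.74 and 8.41 CPM in the selumetinib libraries, with all 3 selumetinib libraries close together (log2 fold change -1.38, SE 0.18, adjusted p = 5.08e-07). DUSP7, a cytoplasmic phosphatase for ERK, was 166 ± 1.8 CPM with DMSO and 122 ± 8.81 CPM with selumetinib (log2 fold change -0.44, SE 0.070, adjusted p = 1.55e-05). DUSP2, an inducible nuclear phosphatase of blood cells, read 10.1, 11.2 and 9.86 CPM in the DMSO libraries and 4.7, 3.0 and 2.99 CPM in the selumetinib libraries (log2 fold change -1.55, SE 0.30, adjusted p = 0.000161).

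DUSP4, a nuclear phosphatase that ERK induces in many cell types, did not fall. It read 32.9, 33.9 and 28.5 CPM in the DMSO libraries and 41.1, 37.7 and 39.8 CPM in the selumetinib libraries, so that every selumetinib library was above every DMSO library (log2 fold change 0.32, SE 0.099, adjusted p = 0.0165). This call was lost without selumetinib replicate 1 or 3, without DMSO replicate 3, and with no filter on low counts. DUSP10, which acts on the stress kinases p38 and JNK, was the other phosphatase that rose, 11.6 ± 0.816 CPM with DMSO and 19.7 ± 2.61 CPM with selumetinib (log2 fold change 0.77, SE 0.16, adjusted p = 0.000483). DUSP1, a phosphatase for all 3 kinds of MAP kinase, had few reads, 3.08, 4.59 and 2.9 CPM against 2.01, 0.924 and 1.48 CPM, and its call (log2 fold change -1.25, SE 0.47, adjusted p = 0.0478) was lost under 10 of the 16 alternative settings. DUSP8, DUSP9 and DUSP16 did not pass, with log2 fold changes of -1.51, -0.67 and 0.29.

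Among the Sprouty and SPRED genes SPRY4 moved with the smallest adjusted p. It read 69.2, 63.7 and 68.1 CPM in the DMSO libraries and 29.4, 19.9 and 18.7 CPM in the selumetinib libraries (log2 fold change -1.56, SE 0.17, adjusted p = 2.28e-07). Replicate 1 again lay between its partners and the DMSO libraries, without overlap. SPRY2 fell from 76.8, 72.8 and 80.3 CPM to 55.5, 44.1 and 44 CPM (log2 fold change -0.68, SE 0.11, adjusted p = 3.30e-05). SPRED2, which brings neurofibromin to the membrane to shut off RAS, read 56, 54.6 and 54.3 CPM in the DMSO libraries and 40.8, 38.4 and 34.4 CPM in the selumetinib libraries (log2 fold change -0.54, SE 0.12, adjusted p = 0.00124). SPRED1 was 43.2 ± 1.02 CPM with DMSO and 34.1 ± 3.17 CPM with selumetinib (log2 fold change -0.34, SE 0.12, adjusted p = 0.0265), a call lost with DMSO day 6 as control, with library totals and without any of 5 of the 6 libraries. SPRY1 was near the detection limit at 2.16, 2.09 and 1.89 CPM against 1.0, 0.462 and 0.164 CPM (log2 fold change -1.93, SE 0.61, adjusted p = 0.0177), a call lost without selumetinib replicate 2 or 3. SPRY3 and SPRED3 did not pass, at 0.59 and -0.93.

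Among the called genes of the signature CCND1 and ETV4 had the largest changes. ETV4 read 19.1, 19.9 and 22.1 CPM in the DMSO libraries and 9.98, 3.47 and 2.34 CPM in the selumetinib libraries, a spread in the selumetinib group that set replicate 1 apart from replicates 2 and 3 (log2 fold change -1.96, SE 0.40, adjusted p = 0.00113). ETV5 read 27, 24.4 and 26.2 CPM in the DMSO libraries and 20.1, 15.3 and 13.5 CPM in the selumetinib libraries (log2 fold change -0.67, SE 0.22, adjusted p = 0.0265), a call lost with library totals and without any 1 of 5 of the 6 libraries. ETV1 did not pass, at a log2 fold change of -0.57 (adjusted p = 0.374). CCND1, which encodes cyclin D1, the cyclin that binds CDK4 and CDK6 in G1, lies on chr11:69641087-69654474 (GRCh38, plus strand) and read 113, 105 and 100.1 CPM in the DMSO libraries and 40.1, 20.2 and 17.2 CPM in the selumetinib libraries (log2 fold change -2.05, SE 0.21, adjusted p = 9.50e-07). Without replicate 1 its log2 fold change was -2.51, adjusted p = 4.54e-16. PHLDA1, a pleckstrin-homology protein induced by growth factors, was 14.8 ± 0.492 CPM with DMSO and 6.95 ± 1.36 CPM with selumetinib (log2 fold change -1.08, SE 0.33, adjusted p = 0.0228), a call lost with no filter on low counts and without any 1 of 5 of the 6 libraries. EPHA2, a receptor tyrosine kinase gene, did not pass at -1.88 (adjusted p = 0.277).

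**Figure D3:**
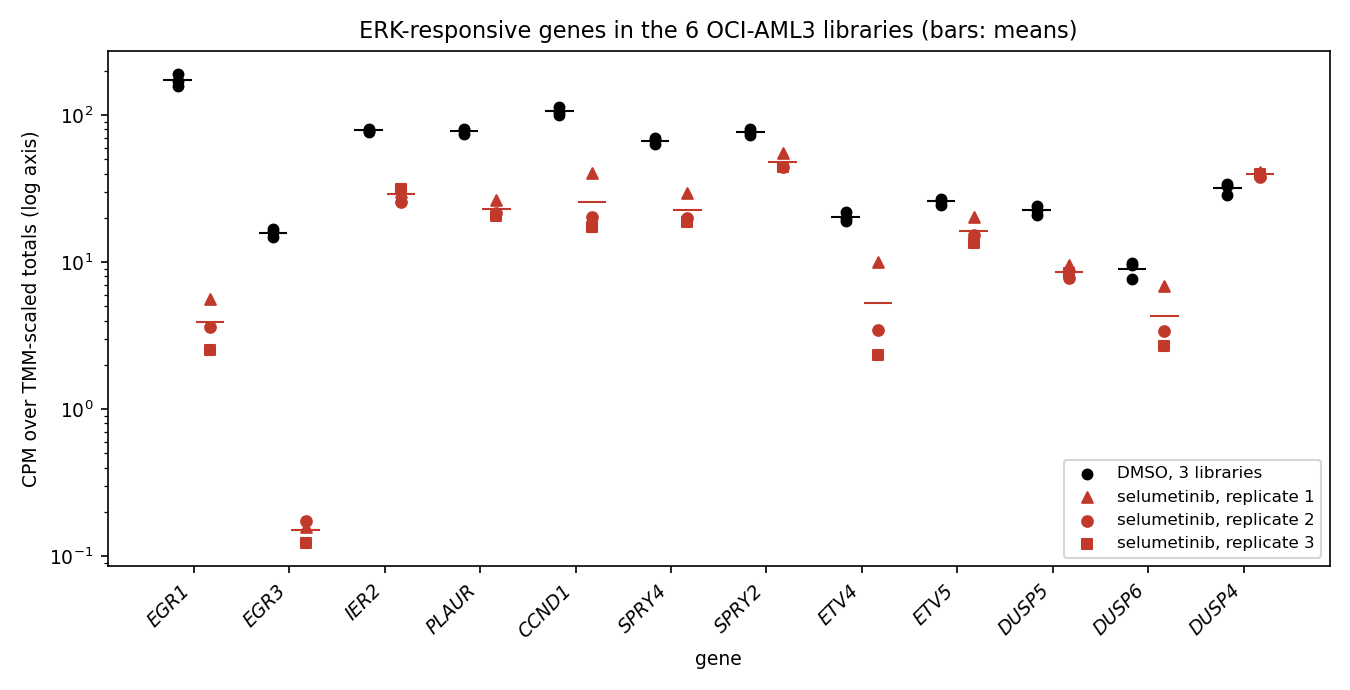
CPM (log axis) of 12 ERK-responsive genes in each DMSO library (black) and in selumetinib replicates 1 (triangle), 2 (circle) and 3 (square), with a bar at each group mean. Of the genes drawn, DUSP4 alone is higher with selumetinib. Genes for which replicate 1 lies nearest to the DMSO points include CCND1, SPRY4, SPRY2, ETV4, ETV5, DUSP6, DUSP5 and EGR1, but not EGR3, IER2 or DUSP4.

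The immediate early genes, which serum response factor, ETS factors and CREB switch on within minutes of a signal, held the 2 largest falls of the comparison among genes with a mean of at least 5 CPM in 1 of the groups. Of 29 tested 17 were lower and 4 higher, with a median of -0.81, and the counts were the same without selumetinib replicate 1. EGR3, a zinc finger factor of the EGR family, read 16.8, 14.7 and 16.1 CPM in the DMSO libraries and 0.158, 0.173 and 0.123 CPM in the selumetinib libraries (log2 fold change -6.67, SE 0.55, adjusted p = 4.54e-10). EGR1, its relative and a classical ERK target, lies on chr5:138465490-138469315 (GRCh38, plus strand) and read 189.5, 156 and 171 CPM in the DMSO libraries and 5.6, 3.64 and 2.54 CPM in the selumetinib libraries (log2 fold change -5.48, SE 0.49, adjusted p = 7.75e-07). Both were at a small fraction of their DMSO level in all 3 selumetinib libraries. EGR4 was low throughout, 6.15, 4.98 and 5.52 CPM against 1.43, 1.21 and 0.615 CPM (log2 fold change -2.36, adjusted p = 0.00392), and EGR2 did not pass (log2 fold change -1.27, adjusted p = 0.474).

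The other early genes fell by smaller amounts. IER2, which encodes a nuclear protein induced by growth factors, read 76.9, 78.4 and 80.1 CPM in the DMSO libraries and 30, 25.6 and 31.2 CPM in the selumetinib libraries (log2 fold change -1.44, SE 0.13, adjusted p = 7.68e-10). KLF10, a Krüppel-like factor induced by TGF-beta and growth factors, read 78.2, 74.9 and 85.6 CPM in the DMSO libraries and 38.2, 33.6 and 33.9 CPM in the selumetinib libraries (log2 fold change -1.17, SE 0.10, adjusted p = 6.98e-10). In both genes the 3 selumetinib libraries were close together and far below the DMSO libraries. PLAUR, the urokinase receptor of monocytes, fell, 78.1 ± 3.15 CPM with DMSO and 22.8 ± 3.11 CPM with selumetinib (log2 fold change -1.77, SE 0.17, adjusted p = 4.45e-08). ATF3, a stress-induced bZIP factor, was 9.04 ± 0.899 CPM with DMSO and 1.72 ± 0.663 CPM with selumetinib (log2 fold change -2.41, SE 0.27, adjusted p = 6.66e-08), and the orphan nuclear receptor NR4A1 was 15 ± 1.09 CPM with DMSO and 3.26 ± 0.286 CPM with selumetinib (log2 fold change -2.20, SE 0.29, adjusted p = 8.61e-07). IER3 read 3.99, 3.99 and 3.06 CPM in the DMSO libraries and 0.264, 0 and 0.533 CPM in the selumetinib libraries, with no read in selumetinib replicate 2 (log2 fold change -3.68, SE 0.89, adjusted p = 0.00245).

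The AP-1 genes did not move together. FOS read 22.3, 21.5 and 20.8 CPM in the DMSO libraries and 11.2, 11.4 and 10.7 CPM in the selumetinib libraries (log2 fold change -0.96, SE 0.15, adjusted p = 7.73e-06) and JUNB 118, 119 and 109.6 CPM in the DMSO libraries and 68.8, 72.9 and 70.2 CPM in the selumetinib libraries (log2 fold change -0.71, SE 0.066, adjusted p = 2.14e-09), both lower in every selumetinib library. FOSL1, whose protein ERK stabilises, was 13.9 ± 1.82 CPM with DMSO and 7.97 ± 2.49 CPM with selumetinib (log2 fold change -0.81, adjusted p = 0.00362). JUND was 194 ± 30.5 CPM with DMSO and 149.6 ± 10.5 CPM with selumetinib (log2 fold change -0.38, adjusted p = 0.00298), a call lost with DMSO day 6 as control and without DMSO replicate 1. FOSL2 rose, reading 228, 236 and 216 CPM in the DMSO libraries and 308, 357 and 364 CPM in the selumetinib libraries (log2 fold change 0.60, SE 0.065, adjusted p = 3.28e-08). JUN was higher at a log2 fold change of 0.55 (adjusted p = 0.0172), a call lost without selumetinib replicate 3 or DMSO replicate 1 or 2, and FOSB did not pass at -1.47. KLF4 and the antiproliferative BTG2 were the other 2 early genes that rose, at 0.88 and 0.45. KLF2, ZFP36L1, SRF and KLF6 were lower at -0.90, -1.41, -0.45 and -0.32, the call of KLF6 being lost with library totals and without selumetinib replicate 2 or DMSO replicate 1. ZFP36, CCN1, CCN2, TRIB1, NR4A2 and IER5 did not pass, with log2 fold changes of -0.17, 3.42, 1.00, -0.29, 0.39 and 0.065.

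The promoters of these genes are shown because the factors that ERK acts on bind at such sequences. Each line below gives the 250 bases before and the 50 after the start of the gene, 5′ to 3′ on the gene's strand, from RefSeq on GRCh38.p14. Capitals mark a match to 1 of 6 motifs searched on both strands: CCGGAAG for ETS factors, TGANTCA for AP-1, TGACGTCA for the cAMP response element, CACGTG for the E-box that MYC family proteins bind, GCGTGGGCG for EGR factors, and the CArG box of serum response factor. None of the 6 contains another, but TGANTCA and TGACGTCA share their outer letters. SPRY4, DUSP7, SPRY2 and DUSP2 are the 4 members of the feedback and signature lists with the smallest adjusted p among the 10 of 14 called lower that had a RefSeq entry; DUSP5, CCND1, ETV4 and ETV5 had none. EGR1 was added after its values were seen. They lie at chr5:138465229-138465528 (plus strand) for EGR1 and, on the minus strand, at chr5:142324198-142324497 for SPRY4, chr3:52056522-52056821 for DUSP7, chr13:80341077-80341376 for SPRY2 and chr2:96145391-96145690 for DUSP2. SPRY2 had 3 entries, of which the one furthest upstream is printed.
EGR1: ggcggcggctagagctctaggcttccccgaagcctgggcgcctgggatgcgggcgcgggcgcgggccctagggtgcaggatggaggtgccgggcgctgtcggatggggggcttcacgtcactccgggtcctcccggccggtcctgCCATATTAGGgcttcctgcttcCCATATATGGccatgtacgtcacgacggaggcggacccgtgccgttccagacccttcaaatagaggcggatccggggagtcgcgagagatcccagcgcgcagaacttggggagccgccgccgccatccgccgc
SPRY4: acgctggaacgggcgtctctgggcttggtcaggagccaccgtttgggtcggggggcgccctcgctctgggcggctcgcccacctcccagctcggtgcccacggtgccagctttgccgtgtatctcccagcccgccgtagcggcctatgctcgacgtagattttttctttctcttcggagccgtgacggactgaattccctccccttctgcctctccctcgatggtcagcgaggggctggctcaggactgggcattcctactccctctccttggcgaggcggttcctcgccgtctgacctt
DUSP7: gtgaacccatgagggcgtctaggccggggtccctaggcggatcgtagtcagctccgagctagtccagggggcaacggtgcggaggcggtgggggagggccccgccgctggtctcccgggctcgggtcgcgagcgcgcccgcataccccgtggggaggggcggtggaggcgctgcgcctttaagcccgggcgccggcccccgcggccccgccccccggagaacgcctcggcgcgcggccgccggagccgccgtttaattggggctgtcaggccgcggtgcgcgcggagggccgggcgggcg
SPRY2: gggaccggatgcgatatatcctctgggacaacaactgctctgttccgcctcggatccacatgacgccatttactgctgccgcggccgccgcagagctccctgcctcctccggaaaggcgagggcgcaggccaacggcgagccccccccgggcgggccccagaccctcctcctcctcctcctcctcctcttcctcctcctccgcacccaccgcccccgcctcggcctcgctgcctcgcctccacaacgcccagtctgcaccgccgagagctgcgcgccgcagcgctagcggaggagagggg
DUSP2: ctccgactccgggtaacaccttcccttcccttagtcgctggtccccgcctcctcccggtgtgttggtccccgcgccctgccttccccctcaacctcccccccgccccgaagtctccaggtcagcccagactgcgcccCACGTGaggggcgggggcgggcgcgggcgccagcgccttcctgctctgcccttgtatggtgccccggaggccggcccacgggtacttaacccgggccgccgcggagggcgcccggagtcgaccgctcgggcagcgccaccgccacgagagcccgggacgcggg

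The EGR1 window held 2 CArG boxes, CCATATTAGG beginning 105 bases and CCATATATGG beginning 83 bases before the start. A CArG box was present in 1.29% of all 35116 RefSeq promoter windows of this length. The DUSP2 window held the E-box CACGTG 113 bases before the start, a motif found in 7.26% of windows. No letters of the 6 motifs were found in the windows of SPRY4, DUSP7 and SPRY2. Of the immediate early genes called lower, 13 were searched, and a match in any entry of a gene was counted. The other called members were left out for want of an entry or by their chromosome. Of the 13, 2 had a CArG box (EGR1 and SRF) and 2 a cAMP response element (JUND and ZFP36L1, share over all windows 1.85%). An ETS match (IER2, 10.3%), an AP-1 match (PLAUR, 7.71%), an E-box (KLF6) and an EGR match (PLAUR, 0.795%) were found in 1 gene each. These are matches of letters and not measured binding sites.

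The genes of the cascade itself moved in both directions. Of 27 tested 10 were lower and 4 higher, with a median of -0.01; 2 were higher without selumetinib replicate 2 or DMSO replicate 1 or 2. MKNK2, an ERK-activated kinase of the translation factor eIF4E, read 312, 301 and 303 CPM in the DMSO libraries and 183, 187 and 195 CPM in the selumetinib libraries (log2 fold change -0.70, SE 0.087, adjusted p = 3.79e-07). RPS6KA2, which encodes an RSK kinase that ERK activates, read 54, 54.9 and 57.4 CPM in the DMSO libraries and 27.7, 18.4 and 15.9 CPM in the selumetinib libraries (log2 fold change -1.43, SE 0.18, adjusted p = 1.09e-06). PTPN11, the SHP2 phosphatase that couples receptors to RAS, was 236 ± 7.37 CPM with DMSO and 162 ± 12.3 CPM with selumetinib (log2 fold change -0.54, SE 0.085, adjusted p = 1.06e-05). RASGRP4, a RAS exchange factor of myeloid and mast cells, went the other way, reading 8.15, 8.37 and 7.08 CPM in the DMSO libraries and 18.7, 24.9 and 26.9 CPM in the selumetinib libraries (log2 fold change 1.58, SE 0.21, adjusted p = 1.95e-06). The target kinase gene MAP2K1 (MEK1) was lower by a small amount (log2 fold change -0.41, adjusted p = 0.00139). NF1 and NRAS did not pass, at -0.19 and 0.090.

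Receptor genes for growth factors and cytokines rose where they changed. Of 24 tested 6 were higher and none lower, with a median of 0.24. CSF1R, the receptor for macrophage colony-stimulating factor, lies on chr5:150053291-150113372 (GRCh38, minus strand) and read 6.91, 4.93 and 5.91 CPM in the DMSO libraries and 28, 63 and 62.9 CPM in the selumetinib libraries (log2 fold change 3.12, SE 0.27, adjusted p = 4.28e-09). Replicates 2 and 3 were alike and replicate 1 was lower, but all 3 were above every DMSO library. IL6R, the interleukin-6 receptor, read 285, 288 and 277 CPM in the DMSO libraries and 411, 485 and 472 CPM in the selumetinib libraries (log2 fold change 0.69, SE 0.072, adjusted p = 2.02e-08). CSF3R, the granulocyte colony-stimulating factor receptor, was 86.1 ± 8.52 CPM with DMSO and 161 ± 19.1 CPM with selumetinib, and FLT3, a receptor of leukaemic progenitors, was 102 ± 2.68 CPM with DMSO and 181 ± 11.2 CPM with selumetinib (log2 fold change 0.90, adjusted p = 1.45e-07 and log2 fold change 0.83, adjusted p = 2.83e-06).

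Genes of the G1 phase and of DNA replication that changed were mostly lower. Of 22 tested G1 cyclins, kinases and inhibitors 11 were lower and 3 higher, with a median of -0.51. CCND3, the cyclin D of blood cells, read 302, 300.4 and 282 CPM in the DMSO libraries and 166, 163 and 173 CPM in the selumetinib libraries (log2 fold change -0.81, SE 0.074, adjusted p = 1.37e-09). E2F1, the factor that cyclin D kinases release from RB, read 44.5, 41.3 and 46.1 CPM in the DMSO libraries and 19.6, 13.9 and 13.7 CPM in the selumetinib libraries (log2 fold change -1.48, SE 0.14, adjusted p = 4.76e-09). CDK4, the kinase partner of both D cyclins, was 159.7 ± 4.1 CPM with DMSO and 102 ± 13.3 CPM with selumetinib (log2 fold change -0.65, SE 0.082, adjusted p = 4.32e-07). CDKN1C, CDKN2B and CDK6 were the 3 higher members, at 2.85, 1.25 and 0.57, CDKN2B losing its call without selumetinib replicate 3. When replicate 1 was left out 5 members were higher.

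Of 37 tested DNA replication genes 34 were lower and none higher, with a median of -0.84. MCM10, MCM7, MCM6 and MCM3, which encode parts or loaders of the helicase that opens origins, had the smallest adjusted p. MCM7, on chr7:100092728-100101940 (GRCh38, minus strand), read 585, 595 and 553 CPM in the DMSO libraries and 349, 240.4 and 266 CPM in the selumetinib libraries (log2 fold change -1.02, SE 0.092, adjusted p = 1.71e-09). MCM10 read 77.7, 83.8 and 76.5 CPM in the DMSO libraries and 40.7, 23 and 27.6 CPM in the selumetinib libraries (log2 fold change -1.38, SE 0.12, adjusted p = 1.14e-09). In both genes replicate 1 was the selumetinib library nearest to DMSO. MCM6 was 382 ± 3.39 CPM with DMSO and 186 ± 33.8 CPM with selumetinib (log2 fold change -1.04, adjusted p = 5.23e-09) and MCM3 229.8 ± 5.47 CPM with DMSO and 129 ± 17 CPM with selumetinib (log2 fold change -0.84, adjusted p = 6.98e-09). PCNA, the sliding clamp, was lower at -0.47 (adjusted p = 3.71e-06). The other 3 members did not pass.

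Mitotic genes were lower by smaller amounts. Of 36 tested 27 were lower and none higher, with a median of -0.37. MAD2L1, a spindle checkpoint protein, read 123, 135 and 127 CPM in the DMSO libraries and 83, 67.3 and 68.5 CPM in the selumetinib libraries (log2 fold change -0.82, SE 0.081, adjusted p = 6.93e-09). CCNA2, which encodes cyclin A2, was 126 ± 5.2 CPM with DMSO and 76.5 ± 4.66 CPM with selumetinib (log2 fold change -0.72, adjusted p = 4.76e-08), AURKB, the kinase of the chromosomal passenger complex, was 84 ± 2.28 CPM with DMSO and 51.2 ± 2.65 CPM with selumetinib (log2 fold change -0.71, adjusted p = 4.64e-07), and the kinesin KIF2C had a log2 fold change of -0.64 (adjusted p = 1.02e-06).

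MYC and most genes of ribosome assembly in the nucleolus were lower. Of 30 tested 26 were lower and none higher, with a median of -0.49. MYC itself, the factor that drives this programme, read 694, 674 and 656 CPM in the DMSO libraries and 479.8, 383 and 391.5 CPM in the selumetinib libraries (log2 fold change -0.69, SE 0.10, adjusted p = 1.32e-05). RRP12, which takes part in the export of ribosomal precursors, read 153, 153 and 142 CPM in the DMSO libraries and 96.2, 79 and 68.9 CPM in the selumetinib libraries (log2 fold change -0.88, SE 0.094, adjusted p = 2.85e-08). The RNA helicase gene DDX21 was 589 ± 24.4 CPM with DMSO and 320.1 ± 40.7 CPM with selumetinib (log2 fold change -0.88, adjusted p = 3.49e-08), and the RNA acetyltransferase gene NAT10 273 ± 6.63 CPM with DMSO and 170.4 ± 17.8 CPM with selumetinib (log2 fold change -0.68, adjusted p = 5.12e-08). Every selumetinib library was below every DMSO library in these 4 genes. MXD4, which encodes a repressor that competes with MYC for its partner MAX, rose from 57.1, 49.7 and 50.1 CPM to 85.9, 103 and 109 CPM (log2 fold change 0.92, SE 0.10, adjusted p = 6.21e-08). Of 45 cytosolic ribosomal protein genes on a partial list of them 44 did not pass and 1, RPLP0, was higher at 0.19 (adjusted p = 0.0457), a call lost in 7 of the alternative settings. With 1 library left out, 2 of the list were higher without selumetinib replicate 1 and 0 without any of the other 5; 7 were higher with library totals and 8 with the 6 compared libraries fitted alone. RPL27A and RPL7A, which are not on the list, were called higher too, at 0.22 and 0.17.

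Genes of nucleotide and polyamine synthesis showed the same direction. Of 23 tested 16 were lower and none higher, with a median of -0.57. MTHFD2, a mitochondrial enzyme of the folate cycle, read 659.7, 676 and 672 CPM in the DMSO libraries and 331, 259.6 and 272 CPM in the selumetinib libraries (log2 fold change -1.22, SE 0.081, adjusted p = 5.02e-12). SHMT2, which feeds that cycle with serine, read 743, 739.7 and 706 CPM in the DMSO libraries and 485, 366 and 383 CPM in the selumetinib libraries (log2 fold change -0.83, SE 0.090, adjusted p = 4.10e-08). CTPS1, the cytidine triphosphate synthase of dividing lymphocytes, was 119.8 ± 0.694 CPM with DMSO and 66.2 ± 9.94 CPM with selumetinib (log2 fold change -0.86, adjusted p = 2.84e-08). PAICS, an enzyme of purine synthesis, was 396 ± 13.3 CPM with DMSO and 231 ± 38.5 CPM with selumetinib (log2 fold change -0.78, adjusted p = 1.93e-07).

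The amino acid and protein stress response, the programme under the factor ATF4 that supplies amino acids and charges transfer RNAs, was lower throughout. All 22 tested members were called lower, with a median of -1.27, and 21 of them were called without selumetinib replicate 1. SLC7A5, the large neutral amino acid transporter, on chr16:87830023-87869488 (GRCh38, minus strand), read 1712, 1689 and 1609 CPM in the DMSO libraries and 503, 281 and 269.8 CPM in the selumetinib libraries (log2 fold change -2.25, SE 0.19, adjusted p = 2.36e-07). SLC38A2, a glutamine and alanine transporter, read 419.6, 437 and 450.1 CPM in the DMSO libraries and 252, 198 and 199 CPM in the selumetinib libraries (log2 fold change -1.01, SE 0.079, adjusted p = 9.73e-11). In both genes replicate 1 was the highest of the selumetinib libraries and still far below DMSO. SLC1A5, the glutamine transporter, was 535 ± 21 CPM with DMSO and 230.2 ± 48.2 CPM with selumetinib (log2 fold change -1.22, adjusted p = 9.88e-10), and SLC7A11, the cystine transporter, 106 ± 8.85 CPM with DMSO and 38 ± 7.86 CPM with selumetinib (log2 fold change -1.48, adjusted p = 4.33e-09). WARS, the tryptophanyl transfer RNA synthetase, was 845 ± 7.09 CPM with DMSO and 344 ± 61.1 CPM with selumetinib (log2 fold change -1.30, adjusted p = 8.05e-09). TRIB3, a pseudokinase induced by ATF4, on chr20:362835-397559 (GRCh38, plus strand), read 403, 370.1 and 373 CPM in the DMSO libraries and 66.9, 46.8 and 41.7 CPM in the selumetinib libraries (log2 fold change -2.88, SE 0.26, adjusted p = 8.44e-07). ASNS, asparagine synthetase, and DDIT3, the stress factor CHOP, were lower at -1.51 and -1.78 (adjusted p = 0.000564 and 0.000266). SESN2, a sestrin of this list, is also in the PI3K, AKT and FOXO list below.

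Sugar and lipid genes changed in part. Of 25 tested genes of glucose uptake and glycolysis 13 were lower and none higher, with a median of -0.30. SLC2A3, the glucose transporter GLUT3, read 137, 122 and 135 CPM in the DMSO libraries and 58.5, 47.7 and 43.9 CPM in the selumetinib libraries (log2 fold change -1.40, SE 0.13, adjusted p = 3.02e-08). PFKP, the platelet form of phosphofructokinase, was 212 ± 7.01 CPM with DMSO and 114 ± 10.5 CPM with selumetinib (log2 fold change -0.90, adjusted p = 2.18e-09), and SLC16A1, a lactate transporter, 168 ± 7.23 CPM with DMSO and 96.1 ± 8.31 CPM with selumetinib (log2 fold change -0.80, adjusted p = 3.68e-08). Of 7 tested genes around TXNIP and the pyruvate dehydrogenase kinases 4 were higher and 2 lower, with a median of 0.67; 1 was lower without selumetinib replicate 3. PDK4, a kinase that shuts off pyruvate dehydrogenase in fasting, read 2.1, 1.89 and 1.67 CPM in the DMSO libraries and 4.07, 8.72 and 6.52 CPM in the selumetinib libraries (log2 fold change 1.76, SE 0.28, adjusted p = 1.87e-05), and TXNIP, the inhibitor of glucose uptake, 922, 842 and 953 CPM in the DMSO libraries and 703, 686 and 727 CPM in the selumetinib libraries (log2 fold change -0.36, SE 0.073, adjusted p = 0.00034).

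Of 23 tested genes of cholesterol synthesis and uptake 8 were higher and 1 lower, with a median of 0.11, and 6 were higher when selumetinib replicate 1 was left out. Leaving out any other 1 of the 6 libraries gave 3 or 4 higher. TM7SF2, a sterol reductase, read 5.13, 4.04 and 3.96 CPM in the DMSO libraries and 10.2, 10.3 and 14.6 CPM in the selumetinib libraries (log2 fold change 1.42, SE 0.20, adjusted p = 3.14e-06). Of 9 tested genes of fatty acid synthesis 5 were lower and 1 higher, with a median of -0.32. ACLY, which makes cytosolic acetyl-CoA, was 475 ± 5.7 CPM with DMSO and 349 ± 26.9 CPM with selumetinib (log2 fold change -0.44, adjusted p = 2.85e-06).

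In the PI3K, AKT and FOXO list, 10 of 25 tested were higher and 5 lower, with a median of 0.19. SESN3, a sestrin and FOXO target, read 39, 45.3 and 50.4 CPM in the DMSO libraries and 139, 181 and 172 CPM in the selumetinib libraries (log2 fold change 1.87, SE 0.11, adjusted p = 1.05e-12). DDIT4, an inhibitor of mTOR complex 1 that stress and ATF4 induce, moved the other way, reading 245, 260.0 and 213 CPM in the DMSO libraries and 52.5, 22.2 and 22.1 CPM in the selumetinib libraries (log2 fold change -2.90, SE 0.29, adjusted p = 2.14e-06). SESN2, another sestrin, was lower, 158 ± 7.49 CPM with DMSO and 72.8 ± 9.06 CPM with selumetinib (log2 fold change -1.12, adjusted p = 5.29e-07). INPP5D, the inositol phosphatase SHIP1 of blood cells, was lower at -0.71 (adjusted p = 2.17e-09). The sestrins of this list thus moved in opposite directions.

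Genes that p53 is known to induce rose in part. Of 18 tested 11 were higher and 2 lower, with a median of 0.53. MDM2, the ubiquitin ligase of p53, read 109, 114 and 109 CPM in the DMSO libraries and 169, 195 and 192 CPM in the selumetinib libraries (log2 fold change 0.74, SE 0.073, adjusted p = 7.29e-09). TP53INP1, an antiproliferative p53 target, read 8.63, 9.62 and 9.14 CPM in the DMSO libraries and 20.8, 37.7 and 34.1 CPM in the selumetinib libraries (log2 fold change 1.76, SE 0.21, adjusted p = 2.20e-07). PHLDA3, an AKT inhibitor, was 26.2 ± 2.42 CPM with DMSO and 55.2 ± 10.4 CPM with selumetinib (log2 fold change 1.08, adjusted p = 1.18e-07), and FDXR, a mitochondrial reductase, 24 ± 2.53 CPM with DMSO and 47.7 ± 5.07 CPM with selumetinib (log2 fold change 0.99, adjusted p = 8.22e-07). The 2 lower members were GDF15 and TNFRSF10B, which ATF4 and CHOP are also known to induce, at -2.64 and -0.37.

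Of 14 tested BCL2 family genes 3 were higher and 4 lower. BMF, a pro-apoptotic BH3-only gene on chr15:40087890-40108892 (GRCh38, minus strand), read 12.8, 13.5 and 13.6 CPM in the DMSO libraries and 30.7, 47.6 and 54.7 CPM in the selumetinib libraries (log2 fold change 1.74, SE 0.19, adjusted p = 1.04e-06). PMAIP1, the BH3-only gene NOXA, fell, reading 62.8, 68.8 and 67.1 CPM in the DMSO libraries and 37.7, 26 and 23.3 CPM in the selumetinib libraries (log2 fold change -1.20, SE 0.12, adjusted p = 6.61e-09). MCL1, a survival protein of myeloid cells, was 461 ± 7.29 CPM with DMSO and 349.9 ± 12.7 CPM with selumetinib (log2 fold change -0.40, adjusted p = 3.61e-06), and BIK, another BH3-only gene, 1.81 ± 0.624 CPM with DMSO and 8.31 ± 2.29 CPM with selumetinib (log2 fold change 2.19, adjusted p = 9.81e-06). BCL2L11 (BIM), whose protein ERK marks for destruction, was higher by a small amount, 126, 132 and 129.6 CPM in the DMSO libraries and 132, 154 and 158 CPM in the selumetinib libraries (log2 fold change 0.20, SE 0.071, adjusted p = 0.0404), a call lost under 6 of the alternative settings.

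Most genes of monocytes and macrophages that changed were higher. Of 23 tested 13 were higher and 4 lower, with a median of 0.97, and 2 were lower without selumetinib replicate 2. LYZ, lysozyme, on chr12:69348341-69354234 (GRCh38, plus strand), read 106, 103 and 112 CPM in the DMSO libraries and 292, 459.9 and 449.9 CPM in the selumetinib libraries (log2 fold change 1.91, SE 0.11, adjusted p = 6.50e-12). CCR2, the chemokine receptor of classical monocytes, read 9.06, 7.92 and 8.47 CPM in the DMSO libraries and 38.2, 43.7 and 48.3 CPM in the selumetinib libraries (log2 fold change 2.35, SE 0.17, adjusted p = 2.00e-11). Both were several times higher in every selumetinib library, least so in replicate 1. CD36, a scavenger receptor, was 51.8 ± 3.5 CPM with DMSO and 104 ± 15.2 CPM with selumetinib (log2 fold change 1.00, adjusted p = 1.77e-09), and VCAN, a proteoglycan of monocytes, 61.2 ± 8.01 CPM with DMSO and 133 ± 26.9 CPM with selumetinib (log2 fold change 1.12, adjusted p = 2.49e-07). CD14, the monocyte co-receptor for lipopolysaccharide, fell, reading 3.51, 1.45 and 3.68 CPM in the DMSO libraries and 0.37, 0.116 and 0.615 CPM in the selumetinib libraries (log2 fold change -2.89, SE 0.60, adjusted p = 0.000429). CYBB, FCGR1A and S100A9 were the other lower members, at -0.83, -0.66 and -0.46; the call of FCGR1A was lost without selumetinib replicate 2 or 3, and that of S100A9 without selumetinib replicate 1 or 2 or DMSO replicate 2.

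Granule genes of the neutrophil lineage also moved in both directions. Of 15 tested 7 were higher and 3 lower, with a median of 0.72. CTSG, cathepsin G, read 1456, 1528 and 1383 CPM in the DMSO libraries and 2904, 3288 and 3565 CPM in the selumetinib libraries (log2 fold change 1.16, SE 0.093, adjusted p = 1.97e-10). PRTN3, proteinase 3, read 181, 181 and 162 CPM in the DMSO libraries and 561, 583 and 617 CPM in the selumetinib libraries (log2 fold change 1.75, SE 0.16, adjusted p = 2.33e-07). AZU1, azurocidin, was 375 ± 10.1 CPM with DMSO and 585 ± 44.5 CPM with selumetinib (log2 fold change 0.64, adjusted p = 8.87e-05). NCF1, a subunit of the phagocyte oxidase that has near-identical pseudogenes whose reads may be shared with it, was lower, 77.7 ± 4.58 CPM with DMSO and 37.7 ± 7.42 CPM with selumetinib (log2 fold change -1.05, adjusted p = 4.25e-08). S100P, a calcium-binding protein, read 20.2, 28.8 and 18.1 CPM in the DMSO libraries and 2.64, 0.404 and 0.369 CPM in the selumetinib libraries (log2 fold change -4.32, SE 0.85, adjusted p = 0.00123). MPO, the myeloperoxidase gene, did not pass at 0.75 (adjusted p = 0.465).

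Of 25 tested myeloid transcription factors 7 were higher and 5 lower. RUNX2 read 149, 162 and 148.5 CPM in the DMSO libraries and 235, 253 and 254 CPM in the selumetinib libraries (log2 fold change 0.69, SE 0.082, adjusted p = 1.56e-07), and ZEB2, a zinc finger repressor, 265, 258 and 268 CPM in the DMSO libraries and 380.1, 431 and 393 CPM in the selumetinib libraries (log2 fold change 0.61, SE 0.084, adjusted p = 1.97e-06). Of 17 tested stem and progenitor genes 4 were higher and 2 lower, with 2 higher without DMSO replicate 1 and 1 lower without selumetinib replicate 3. HOXA9, a homeobox gene that NPM1-mutant leukaemia depends on, was 95.1 ± 1.78 CPM with DMSO and 67 ± 4.08 CPM with selumetinib (log2 fold change -0.51, adjusted p = 0.000156), and its partner MEIS1 was 44 ± 2.35 CPM with DMSO and 57.6 ± 3.5 CPM with selumetinib (log2 fold change 0.39, adjusted p = 0.0118), so that these 2 genes moved in opposite directions. The call of MEIS1 was lost without DMSO replicate 1.

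Adhesion genes, lysosomal genes and secreted factors also changed. Of 21 tested integrin and adhesion genes 7 were higher and 5 lower. ITGB7, the beta-7 integrin of gut homing, read 2.7, 2.69 and 3.68 CPM in the DMSO libraries and 18.7, 28.6 and 27.3 CPM in the selumetinib libraries (log2 fold change 3.04, SE 0.21, adjusted p = 8.47e-12). ITGB2, the beta-2 chain (CD18) of the leukocyte integrins, fell, reading 1143, 1083 and 1083 CPM in the DMSO libraries and 585, 442 and 489 CPM in the selumetinib libraries (log2 fold change -1.13, SE 0.087, adjusted p = 6.43e-11). SELPLG, the P-selectin ligand, was 38.7 ± 2.26 CPM with DMSO and 85 ± 10.5 CPM with selumetinib (adjusted p = 1.07e-08). Of 28 tested lysosome genes 16 were higher and 1 lower, with a median of 0.26, and 10 were higher without selumetinib replicate 3, the higher ones including CTSS (109.7 ± 8.88 CPM with DMSO and 197 ± 25.7 CPM with selumetinib), GRN (384 ± 32.6 CPM with DMSO and 798 ± 134 CPM with selumetinib) and PSAP (314 ± 6.75 CPM with DMSO and 514 ± 62.5 CPM with selumetinib), with adjusted p of 5.49e-09, 9.81e-09 and 1.86e-08. The lower one was ATP6V1B2, a subunit of the proton pump.

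Of 21 tested chemokines and cytokines 9 were lower and 2 higher, with a median of -0.62. TNF read 47.5, 49.6 and 40 CPM in the DMSO libraries and 12.4, 7.45 and 8.04 CPM in the selumetinib libraries (log2 fold change -2.30, SE 0.19, adjusted p = 1.36e-09), and CXCL8, the neutrophil chemokine interleukin-8, 101, 99.7 and 111 CPM in the DMSO libraries and 36.4, 25.6 and 25.9 CPM in the selumetinib libraries (log2 fold change -1.83, SE 0.18, adjusted p = 1.18e-07). CCL5, a chemokine for T cells and monocytes, was 196 ± 4.98 CPM with DMSO and 93.9 ± 5.21 CPM with selumetinib (log2 fold change -1.06, adjusted p = 1.14e-09). TNFSF13B, the B cell survival factor BAFF, rose, reading 5.56, 6.03 and 5.85 CPM in the DMSO libraries and 17.6, 22.2 and 20 CPM in the selumetinib libraries (log2 fold change 1.78, SE 0.16, adjusted p = 1.06e-09). VEGFA, the vascular growth factor, was lower at -1.81 (adjusted p = 3.75e-07).

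Most interferon-stimulated and antigen presentation genes were not called. Of 30 tested interferon-stimulated genes 4 were higher and 1 lower, with a median of 0.38, beside 11.7% higher and 15.6% lower of all genes. The higher ones were 2 without selumetinib replicate 3 and 11 with the 6 compared libraries fitted alone. STAT2 read 42.7, 44.2 and 43.3 CPM in the DMSO libraries and 62.8, 99.7 and 96.4 CPM in the selumetinib libraries (log2 fold change 0.99, SE 0.16, adjusted p = 9.54e-05), and RSAD2, an antiviral enzyme, 3.08, 2.59 and 2.62 CPM in the DMSO libraries and 7.08, 11.1 and 10.3 CPM in the selumetinib libraries (log2 fold change 1.78, SE 0.29, adjusted p = 5.47e-05). Of 9 tested genes of MHC class II and its activator CIITA 3 were higher, all under 2 CPM in each of the 6 compared libraries, and the median was 1.38. Of that list 1 gene was higher without selumetinib replicate 1 or DMSO replicate 2, and 0 without selumetinib replicate 2 or DMSO replicate 3. With DMSO day 6 as control the 3 genes, CIITA, HLA-DRA and HLA-DMA, all lost their calls. Of 16 tested MHC class I genes 3 were higher and 3 lower. TAP2, a peptide transporter, was 52.9 ± 2.71 CPM with DMSO and 32 ± 5.34 CPM with selumetinib (log2 fold change -0.73, adjusted p = 5.34e-06), and the non-classical molecule HLA-E 603 ± 24.6 CPM with DMSO and 491 ± 23.9 CPM with selumetinib (log2 fold change -0.30, adjusted p = 0.000302).

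Of the 13 tested protein-coding genes of the mitochondrial genome 9 were higher and none lower, with a median of 0.61, and 5 were higher without selumetinib replicate 2 or DMSO replicate 1. MT-CO3 read 3164, 3235 and 3234 CPM in the DMSO libraries and 4400.0, 5309.6 and 4935 CPM in the selumetinib libraries (log2 fold change 0.60, SE 0.14, adjusted p = 0.00213). The DMSO libraries of day 6 varied more, 4373, 3362 and 4689 CPM, and with them as control each of the mitochondrial genes named here lost its call. The same libraries had mitochondrial shares of 3.53%, 2.48% and 3.71%.

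**Figure D4:**
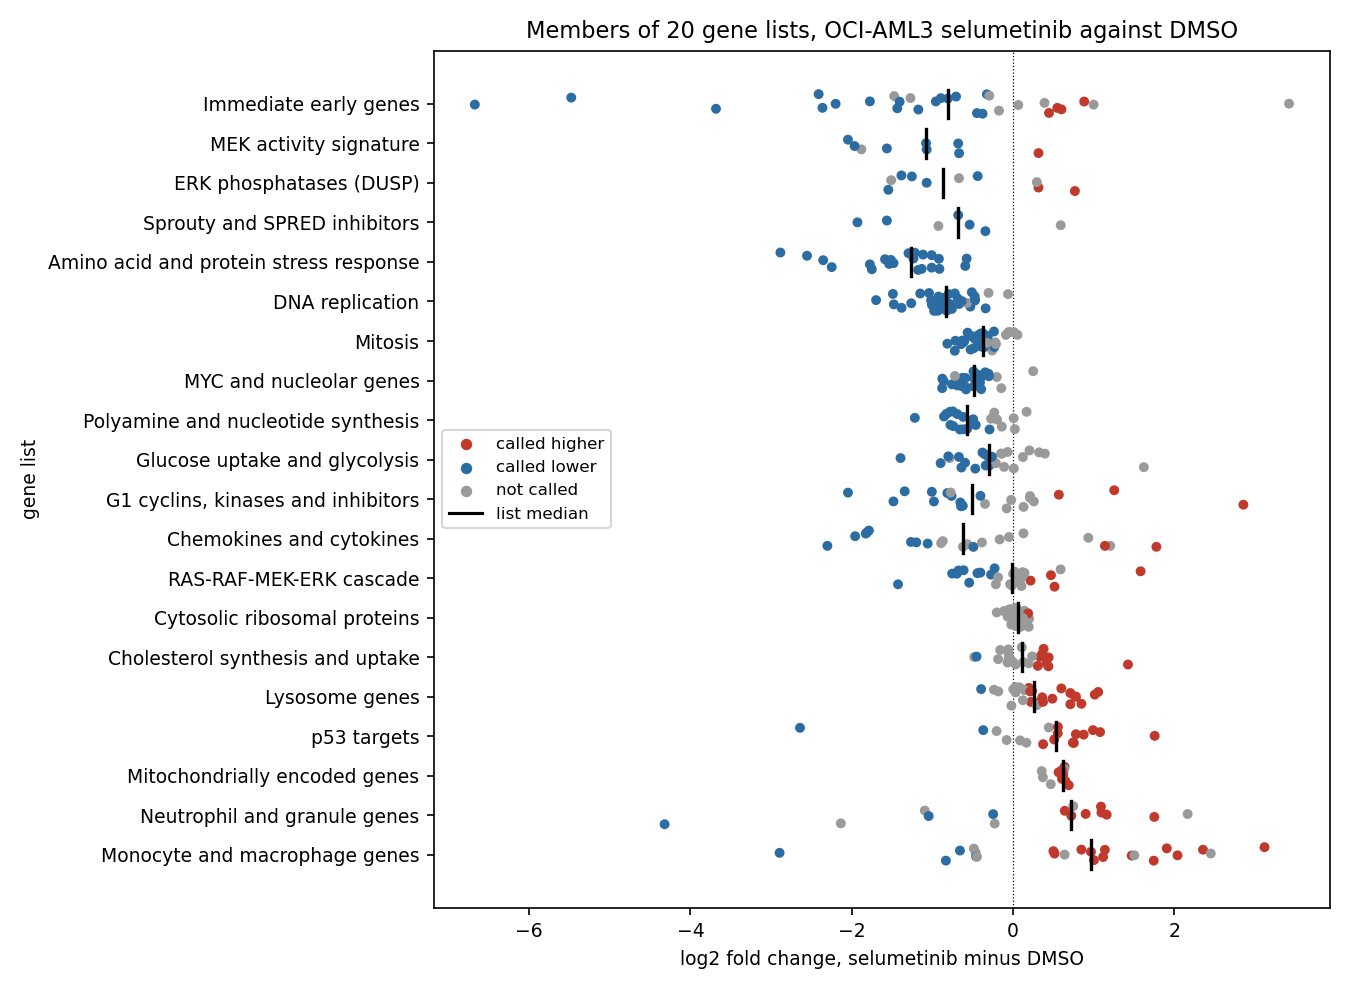
Log2 fold change, selumetinib minus DMSO, of each tested member of 20 gene lists, with members called higher in red, called lower in blue and not called in grey, and a black bar at each list's median. The 22 amino acid and protein stress response genes all lie left of 0, with a median of -1.27, and of the 20 lists drawn the monocyte and macrophage genes have the rightmost median, 0.97.

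The largest rises and falls were taken among called genes whose groups did not overlap and whose higher group averaged 5 CPM or more. Of these BBOX1, the last enzyme of carnitine synthesis, on chr11:27040725-27127809 (GRCh38, plus strand), rose most. It read 0, 0.199 and 0.0557 CPM in the DMSO libraries and 4.38, 4.62 and 6.89 CPM in the selumetinib libraries (log2 fold change 5.81, SE 1.12, adjusted p = 0.000987), on 5 reads in all in the DMSO group. OLFML3, a secreted olfactomedin-domain protein, on chr1:113979391-114035572 (GRCh38, plus strand), read 0.27, 0.0997 and 0.167 CPM in the DMSO libraries and 3.75, 9.7 and 9.97 CPM in the selumetinib libraries (log2 fold change 5.41, SE 0.58, adjusted p = 2.82e-08). PLD4, a lysosomal nuclease of myeloid cells, read 2.59, 2.19 and 2.23 CPM in the DMSO libraries and 21.8, 52.2 and 49.4 CPM in the selumetinib libraries (log2 fold change 4.13, SE 0.37, adjusted p = 1.02e-07), and NAPSB, a transcribed pseudogene of napsin whose reads may be shared with NAPSA, had a log2 fold change of 4.27. In these genes all selumetinib libraries were far above the DMSO libraries. FGD2, an exchange factor for Cdc42, was 0.688 ± 0.423 CPM with DMSO and 9.0 ± 3.22 CPM with selumetinib and MAP2K6, the kinase MEK6 that activates p38, 1.22 ± 0.268 CPM with DMSO and 12.5 ± 2.78 CPM with selumetinib (log2 fold change 3.72, adjusted p = 3.15e-07 and log2 fold change 3.35, adjusted p = 8.64e-05). GASK1B, PLPP3, ADGRG5, TMEM255A, METTL7A and EBF3 completed the 12 largest rises, with log2 fold changes of 3.48, 3.45, 3.33, 3.28, 3.25 and 3.18.

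The largest falls after EGR3 and EGR1 were CLGN, C5AR1 and GPR84. CLGN, a chaperone of the endoplasmic reticulum on chr4:140388455-140427968 (GRCh38, minus strand), read 21, 22.6 and 27.9 CPM in the DMSO libraries and 0.739, 0.982 and 0.246 CPM in the selumetinib libraries (log2 fold change -5.24, SE 0.82, adjusted p = 0.000168). C5AR1, the receptor for the complement fragment C5a, read 10.6, 10.7 and 7.24 CPM in the DMSO libraries and 0.422, 0.347 and 0.082 CPM in the selumetinib libraries (log2 fold change -5.11, SE 0.83, adjusted p = 0.00013). GPR84, a receptor for medium-chain fatty acids on myeloid cells, read 43.4, 40.6 and 46.6 CPM in the DMSO libraries and 3.7, 0.462 and 0.779 CPM in the selumetinib libraries (log2 fold change -4.74, SE 0.52, adjusted p = 4.28e-06). In each of these 3 genes every selumetinib library was far below every DMSO library. SPTB, erythroid beta spectrin, read 7.55, 9.57 and 8.08 CPM in the DMSO libraries and 1.16, 0 and 0.041 CPM in the selumetinib libraries, with no read in replicate 2 (log2 fold change -4.41, SE 0.82, adjusted p = 0.00114). RGS16, which limits G protein signalling, read 53.1, 47.8 and 50.1 CPM in the DMSO libraries and 6.28, 6.87 and 5.17 CPM in the selumetinib libraries (log2 fold change -3.05, adjusted p = 1.60e-05). S100P, AC016573.1, KCNG1, SLC12A8 and SCN4A completed the 12, at -4.32, -3.63, -3.49, -3.12 and -3.01.

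Among the 12 called genes of highest mean level were 5 of the mitochondrial genome (MT-CO1, MT-CO2, MT-CO3, MT-ND4 and the ribosomal RNA gene MT-RNR2), CTSG and the ribosomal protein genes RPLP0, RPL27A and RPL7A. HSPA8, the constitutive HSC70 chaperone, was 2132 ± 225 CPM with DMSO and 1514 ± 188 CPM with selumetinib (log2 fold change -0.49, adjusted p = 0.000277). MSN, moesin, which links actin to the membrane, was 2566 ± 3.08 CPM with DMSO and 1506 ± 89 CPM with selumetinib (log2 fold change -0.77, adjusted p = 2.99e-10). ACTB, beta actin, had a log2 fold change of -0.18 (adjusted p = 0.0467), a call lost in 11 of the alternative settings. RPL27A and RPL7A lost theirs in 5 and 7, DMSO day 6 as control among them. Ribosomal protein genes have many processed pseudogenes, and how the counting shared their reads is not given in the sources used here.

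The effect of selumetinib in cells that also had VTP-50469 was more negative for most genes of the MEK activity signature. It was tested as the difference between 2 effects, combination minus VTP-50469 on day 3 against selumetinib minus DMSO. Of the 16384 genes 1465, or 8.94%, were called for this difference, 437 (2.67%) with a higher effect in the presence of VTP-50469 and 1028 (6.27%) with a lower one. The count was 970 without selumetinib replicate 1. The labels do not give the time of selumetinib within the combination, and those of selumetinib alone conflict as described above. The lengths of treatment in the 2 effects may therefore differ, which bears on this test too. In several of the genes below VTP-50469 replicate 2 stood apart from its partners, and without it 1766 genes were called.

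Of the 9 signature genes 7 had a lower effect and none a higher one. DUSP6 read 12.7, 23.3 and 13.7 CPM with VTP-50469 and 0.828, 1.16 and 1.89 CPM with the combination, and its difference of effects was -2.60, SE 0.49, adjusted p = 0.00123. ETV4 read 20.7, 25.3 and 19.1 CPM and 0.466, 0.211 and 1.19 CPM in these groups (difference -3.12, SE 0.67, adjusted p = 0.00658). CCND1 read 96.4, 96.2 and 93.1 CPM and 7.24, 7.61 and 5.61 CPM (difference -1.76, SE 0.31, adjusted p = 0.00146). For these 3 genes every combination library was below every library of selumetinib alone. SPRY4 read 54.1, 78.9 and 60.3 CPM and 8.12, 7.08 and 11.3 CPM (difference -1.30, SE 0.24, adjusted p = 0.00125). DUSP4, which was higher with selumetinib alone, read 41.4, 44.3 and 40.7 CPM and 20.1, 21 and 21 CPM, so that every combination library was below every VTP-50469 library (difference -1.34, SE 0.14, adjusted p = 3.96e-07). SPRY2, SPRY1, SPRED2 and ETV5 also had a lower effect, at -0.88, -3.17, -0.58 and -1.60, the calls of SPRY1 and SPRED2 being lost without selumetinib replicate 1, among other libraries.

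Immediate early genes differed in the other direction. Of 29 tested 11 had a higher effect with VTP-50469 and 1, CCN2, a lower one. IER2 read 51.9, 40 and 59.1 CPM with VTP-50469 and 37.2, 29.1 and 39.2 CPM with the combination (difference 0.92, SE 0.18, adjusted p = 0.000789), and KLF10 read 72, 58.9 and 68.2 CPM and 74.8, 79.4 and 83.6 CPM (difference 1.43, SE 0.14, adjusted p = 1.57e-07). For both genes every VTP-50469 library was already below every DMSO library of day 3. EGR1 read 39, 12.8 and 41.1 CPM and 1.91, 4.22 and 1.94 CPM, and its difference of 1.95 did not pass (adjusted p = 0.136). Of the other lists, DNA replication had 25 of 37 members with a lower effect, MYC and nucleolar genes 21 of 30, nucleotide and polyamine synthesis 15 of 23, the amino acid response 12 of 22, and cholesterol synthesis 10 of 23. None of the members of these 5 lists had a higher effect. Lysosome genes had 6 of 28 with a higher effect and none with a lower one.

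The effect in NOMO1 was set against that in OCI-AML3 with both of the NOMO1 controls, since its DMSO libraries of day 3 stood apart. Of their counts 17.6% to 18% were mitochondrial, against 5.29% to 6.68% with selumetinib. The labels of the NOMO1 selumetinib libraries conflict in the same way as in OCI-AML3. The title of replicate 1 gives day 1, those of replicates 2 and 3 give day 3, and all descriptions give day 1. The length of treatment is thus open in both lines. Of 18707 genes tested in both lines 6301, or 33.7%, were called for a difference between the lines with day 3 controls, 3755 higher in NOMO1 and 2546 lower. With day 6 controls 1797, or 9.61%, were called, 870 higher and 927 lower. In the same direction with both controls 620 genes, or 3.31%, had a higher effect in NOMO1 and 456, or 2.44%, a lower one. Genes named here were called in the same direction with both, unless said otherwise. In the signature, 6 of 9 genes had a lower effect in NOMO1 with both controls and 1 a higher effect.

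In NOMO1 DUSP4 read 3.02, 2.28 and 5.32 CPM with DMSO on day 3, 3.9, 2.88 and 3.42 CPM with DMSO on day 6 and 0.338, 0.364 and 0.192 CPM with selumetinib. The line difference was -3.81, SE 0.42, adjusted p = 2.24e-08 with day 6 controls. DUSP6 read 36.9, 38.5 and 38.8 CPM and 5.06, 4.0 and 2.98 CPM in NOMO1 with DMSO on day 6 and selumetinib (difference -2.02, SE 0.39, adjusted p = 0.000524). CCND1 read 47.1, 54.9 and 53.4 CPM and 2.83, 3.03 and 3.13 CPM there (difference -2.20, SE 0.26, adjusted p = 1.04e-07), and ETV4 78.3, 75.8 and 73.2 CPM and 1.86, 0.606 and 2.26 CPM (difference -3.44, SE 0.48, adjusted p = 7.50e-06). Each of these 4 genes had a lower effect in NOMO1 than in OCI-AML3. SPRY2 went the other way, 23.7, 22.3 and 22.3 CPM and 20.3, 16.7 and 22.6 CPM in NOMO1, with a difference of 0.57, SE 0.17, adjusted p = 0.0247. KLF10 read 24.7, 30.6 and 22.1 CPM and 31.6, 30.5 and 26.2 CPM (difference 1.37, SE 0.19, adjusted p = 1.14e-06). IER2 and FOSL2 turned with the control: their line differences were -0.20 and 0.12 with day 3 controls and 0.86 and -0.55 with day 6 controls. Of the other lists, 10 of 37 DNA replication genes and 4 of 22 amino acid response genes had a higher effect in NOMO1 with both controls, while 8 of 23 cholesterol genes, 5 of 28 lysosome genes and 4 of 18 p53 targets had a lower one. The counts depended on the control. DNA replication had 25 higher and 3 lower with day 3 controls and 10 higher with day 6, and the amino acid response 5 higher and 3 lower against 13 higher. Cholesterol genes had 5 higher and 9 lower with day 3 controls and 18 lower with day 6, lysosome genes 7 higher and 6 lower against 10 lower, and p53 targets 2 higher and 7 lower against 9 lower.

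**Figure D5:**
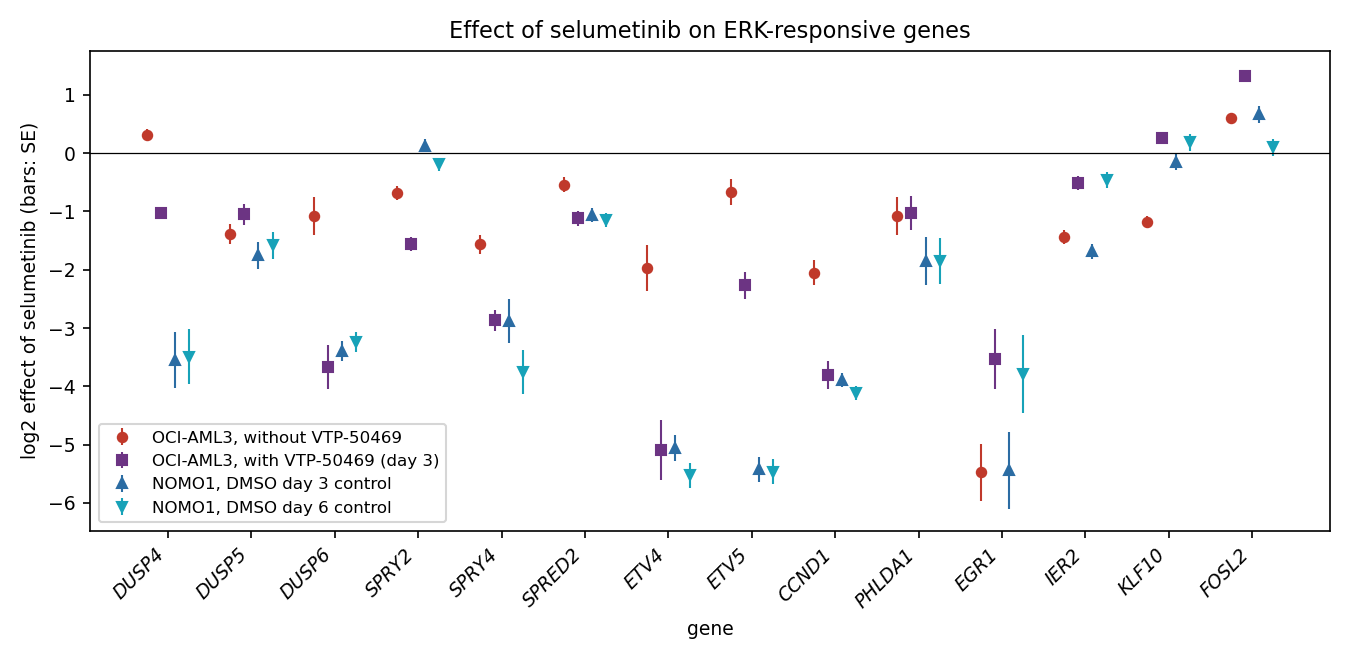
Log2 effect of selumetinib, with SE, on 14 ERK-responsive genes in OCI-AML3 without VTP-50469 (red circles) and with it (purple squares), and in NOMO1 against DMSO of day 3 (blue up triangles) and day 6 (cyan down triangles). DUSP4 is above 0 in OCI-AML3 with selumetinib alone and below 0 in the other 3 settings.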

How the data were processed

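The deposited table held raw counts of reads per gene, 58870 rows on hg38, in 1 column per library. Per the submitters' processing notes, tools named are FastQC 0.11.9, MultiQC 1.14, STAR 2.11a, Subread 2.0.6 and DESeq2 1.44.0, with no order or settings. Per the labels' protocols, libraries were paired-end, from polyadenylated RNA, and no strand setting is given, so antisense and overlapping genes cannot be separated. Libraries were grouped by their labels. A set of 3 columns matched no labelled library (they equal the selumetinib columns in all 58870 rows) and was not used. The gene FGR, with an empty cell, was left out.

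From the counts, low genes were removed with filterByExpr, libraries were scaled with TMM, and edgeR 4.0.16 (limma 3.58.1, R 4.3.3) fitted robust quasi-likelihood models with group means over the 21 OCI-AML3 libraries, or all 42 for the line difference. Calls were made at an adjusted p of 0.05 (Benjamini-Hochberg). DESeq2 1.42.0 was an alternative. Per-library log differences used an offset of 0.5 CPM. The method was tried only on data simulated for the 6 compared libraries, with a spread set beforehand. The fits over 21 or 42 libraries were not tested in this way. The table of promoters came from RefSeq, and gene coordinates from the GENCODE release 29 annotation.

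The members, gene lists and tests were chosen with earlier results of these data known. Named were all tested members of the 5 ERK lists, the 12 largest rises and falls with a mean of at least 5 CPM and no overlap, the 12 most abundant called genes, and from every other list at most 4 that were called, by adjusted p, and at most 3 that did not pass. Other genes, such as the few called members of a list against its direction, DDIT4, TRIB3, VEGFA and MEIS1, were named after their values were seen. Some genes that the rule takes are not reported here. Counts fell between 17006206 and 24262960 per compared library.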

Additional observations from a re-analysis of the deposited data

Results flagged for a closer look

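The results below were picked out because the effect of selumetinib on a gene of the 5 ERK lists differed between 2 settings by a test of the difference itself, at an adjusted p of 0.05 in edgeR's quasi-likelihood test. Groups of 3 libraries are too small for a test of single outlying samples.

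Each value is the difference between the 2 log2 effects. With VTP-50469 present on day 3, the effect was lower than without it for CCN2, at -4.21 (adjusted p = 0.00047), SPRY1, at -3.17 (adjusted p = 0.0421), ETV4, at -3.12 (adjusted p = 0.00658), DUSP6, at -2.6 (adjusted p = 0.00123), CCND1, at -1.76 (adjusted p = 0.00146) and ETV5, at -1.6 (adjusted p = 0.00235). It was lower for DUSP4, at -1.34 (adjusted p = 3.96e-07), SPRY4, at -1.3 (adjusted p = 0.00125), SPRY2, at -0.876 (adjusted p = 0.000671) and SPRED2, at -0.581 (adjusted p = 0.0341). CCN2 read 1.86, 4.77 and 2.5 CPM with VTP-50469 and 0.259, 0.158 and 0.546 CPM with the combination. SPRY1 read 2.53, 3.61 and 3.32 CPM and 0.259, 0 and 0 CPM in the same groups. Leaving out 1 of the 12 libraries ended the call of SPRY1 in 10 cases and that of SPRED2 in 7, selumetinib replicate 1 among them.

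The effect was higher with VTP-50469 for 11 immediate early genes. The differences were 1.49 for KLF2, 1.43 for KLF10, 0.968 for PLAUR, 0.92 for IER2, 0.859 for FOS, 0.747 for ZFP36, 0.719 for FOSL2, 0.638 for JUND, 0.562 for BTG2, 0.533 for JUNB and 0.499 for IER5, with adjusted p from 1.57e-07 to 0.0321. Among the same 12 left-out libraries the call of BTG2 was lost in 9 cases, that of IER5 without selumetinib replicate 1 and that of PLAUR without combination replicate 3. KLF2 read 30.5, 28.4 and 30.9 CPM with VTP-50469 and 43.1, 42.8 and 49.9 CPM with the combination, against 61.5, 58.7 and 52.3 CPM with DMSO and 24.2, 29.2 and 39.1 CPM with selumetinib alone. FOSL2 read 236, 223 and 240.4 CPM and 566, 607 and 571 CPM, so that it rose with selumetinib in both settings and further in the combination.

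Between the lines, with DMSO of day 6 as control and in the same direction with day 3, the effect was lower in NOMO1 for ETV1, at -5.4 (adjusted p = 0.0087), ETV5, at -4.69 (adjusted p = 1.95e-11), DUSP4, at -3.81 (adjusted p = 2.24e-08), ETV4, at -3.44 (adjusted p = 7.5e-06), JUN, at -2.52 (adjusted p = 0.000144), SPRY4, at -2.31 (adjusted p = 0.000179), CCND1, at -2.2 (adjusted p = 1.04e-07) and DUSP6, at -2.02 (adjusted p = 0.000524). It was higher in NOMO1 for ATF3, at 2.06 (adjusted p = 0.00534), KLF10, at 1.37 (adjusted p = 1.14e-06), SPRY2, at 0.565 (adjusted p = 0.0247) and JUNB, at 0.559 (adjusted p = 0.0363). JUN, higher with selumetinib in OCI-AML3 at 10.5, 10 and 14 CPM with DMSO and 17.1, 15.7 and 17.7 CPM with the drug, read 8.23, 9.07 and 6.03 CPM with DMSO of day 6 and 1.48, 1.76 and 3.42 CPM with selumetinib in NOMO1. With day 3 controls the call of SPRY4 was lost without OCI-AML3 selumetinib replicate 1, NOMO1 selumetinib replicate 3 or NOMO1 DMSO replicate 3. ETV5 read 75.9, 70.9 and 71.8 CPM with DMSO of day 6 and 2.15, 1.52 and 1.2 CPM with selumetinib in NOMO1. ETV1 was near the detection limit there, at 1.3, 1.69 and 1.23 CPM with DMSO of day 6 and 0, 0.0606 and 0 CPM with selumetinib. The size of its line difference thus rests on very few reads, and ETV1 was not called in OCI-AML3.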

How the results depend on the processing

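The counts of 1920 higher and 2562 lower genes kept within 1.5 times of these values in all settings run but 1: with the 6 compared libraries fitted alone, 2923 were higher and 3202 lower. Leaving out 1 library at a time gave 1417 to 1874 higher and 1900 to 2397 lower genes. With DMSO day 6 as control 1968 were higher and 2545 lower, and with DESeq2 2147 and 2533. Between the DMSO days 0 genes were called, 1 by DESeq2 and 0 to 1 with a library left out (1 without OCI-AML3 DMSO day 6 replicate 1); these checks were chosen after seeing the data. The difference with VTP-50469 was called for 970 to 1766 genes with a library left out, the lowest without selumetinib replicate 1. The line difference fell from 6301 to 1797 genes with day 6 controls, where IER2 turned to 0.86 and FOSL2 to -0.55; the cause was not tested. No log2 fold change of selumetinib against DMSO changed sign for the 236 genes followed. Many of these genes were picked by their call, and the settings reuse the same libraries, so a stable sign was likely from the start. Of the 236, which include genes that were not called, 20 lost their call with day 6 controls and 12 to 29 with a library left out.

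Replicate numbers did not pair the libraries: same-numbered deviations correlated at -0.0115, -0.0297 and -0.0191. With the replicate number as a block 1853 genes were higher and 2511 lower, 6252 differed between the lines and 1385 with VTP-50469; HLA-DRA, ACTB, RPLP0, COL1A1 and KRT19 lost their calls.

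With 3 libraries a group, and no DMSO library of day 1, small differences at low counts were not detectable at this depth. Genes with few reads, such as the 3 called MHC class II genes, had wide errors.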

Other observations

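Histone genes, a group picked after their values were seen, were higher where they changed. Of 34 tested 13 were higher and none lower, with a median log2 fold change of 1.80, beside 11.7% higher and 15.6% lower of all tested genes. HIST1H2AC, a gene for histone H2A, read 7.66, 9.47 and 9.47 CPM in the DMSO libraries and 40.7, 83.2 and 83.7 CPM in the selumetinib libraries (log2 fold change 2.96, SE 0.21, adjusted p = 9.58e-09). HIST1H2BK, for histone H2B, read 8.74, 8.67 and 8.8 CPM in the DMSO libraries and 27.3, 40.8 and 45.4 CPM in the selumetinib libraries (log2 fold change 2.12, SE 0.15, adjusted p = 9.74e-12). HIST1H1C, for a linker histone, read 1.73, 3.19 and 3.45 CPM in the DMSO libraries and 8.92, 17.2 and 16.7 CPM in the selumetinib libraries (log2 fold change 2.35, SE 0.28, adjusted p = 8.82e-07). In each of these genes every selumetinib library was above every DMSO library, replicate 1 least so. Of the called histone genes HIST1H2BG, HIST1H2BE, HIST1H2BJ, HIST1H3H and HIST1H4H were under 3 CPM in all 6 compared libraries. HIST1H2BG lost its call with DMSO day 6 as control. Both HIST1H2BG and HIST1H2BE lost theirs without DMSO replicate 2 or 3, HIST1H2BG also without selumetinib replicate 2 and HIST1H2BE without selumetinib replicate 3. Histone genes are near-identical copies of each other, so the reads of single members may be shared, and many of their mRNAs end without a poly(A) tail. The 34 replication genes that were lower moved in the opposite direction in the same libraries.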
